A study of Drosophila melanogaster with 3 samples.

Results

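Binding of pdm3 was examined at 10 genes for axon guidance receptors and ligands in Drosophila melanogaster at the white prepupa stage. The genes, which were listed by name, are unc-5, fra, NetA, NetB, robo1, robo2, robo3, sli, PlexA and Sema1a, and they are 10 of 13945 protein-coding genes on the 6 arms used. The animals came from a transgenic line, strain pdm3-GFP, that stably expresses pdm3 fused at its C terminus to GFP. Both sexes were pooled, the age is given as unknown, and the stage is the white prepupa, at the onset of metamorphosis. Chromatin of the whole organism was sonicated to 200 to 800 bp, immunoprecipitated through the GFP and sequenced. There are 3 biological replicates in 1 group, so there is no other genotype, stage or treatment to set against them. The labels do not say how the animals of the replicates were kept apart, so the spread between replicates may be in part technical. Because the chromatin is that of the whole animal, binding in few cells and weak binding in many cells cannot be told apart.

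The deposited lists give the position of each peak, its summit (the base where the peak is highest) and a signal value, the authors' measure of height, by which peaks were ranked inside each list but not across lists. The optimal list is the authors' list of reproducible peaks and holds 8164 peaks with a median width of 420 bp. Each replicate also has a list of 30000 candidate peaks, which takes in weak ones. Library depth is unknown, as the lists carry no reads. The rank of an optimal peak in a replicate is that of the highest peak overlapping it there. Replicate 2 had 94 candidates on chromosome 4, against 255 in replicate 1 and 300 in replicate 3. A summit was counted for a gene when it lay inside that gene or up to 5 kb outside. This held even where the start site of another gene was nearer. It was called a promoter summit within 500 bp of one of that gene's annotated start sites, and an intronic summit when it lay farther off, inside the gene and outside all its exons.

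Axon guidance genes encode the signals that growing axons read and the receptors with which they read them. NetA and NetB are netrins, secreted proteins that attract axons through the receptor Frazzled (fra) and repel them through Unc-5. Slit (sli), secreted at the midline, repels axons through the Roundabout receptors, of which robo1 keeps axons from recrossing and robo2 and robo3 also set how far from the midline a longitudinal axon runs. Sema1a is a transmembrane semaphorin that acts as a ligand of Plexin A (PlexA) and also as a receptor. Much of the nervous system is rewired during metamorphosis. The tagged protein, pdm3, belongs to the POU-homeodomain class of transcription factors and is known from work on how olfactory neurons choose their receptors and targets.

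The sequence under the strongest summits is shown first, since these are the places at which the binding signal of a member was highest. Each window reaches 50 bp to either side of the summit on the dm6 assembly as given by RefSeq, plus strand, 5′ to 3′, and capitals mark the 21 bp around the summit. Windows are shown for NetA, robo2, PlexA and Sema1a.
NetA, highest summit, intron (chrX:14612479-14612579): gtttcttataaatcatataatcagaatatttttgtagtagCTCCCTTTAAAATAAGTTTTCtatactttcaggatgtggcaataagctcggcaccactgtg
robo2, highest summit, upstream (chr2L:1425021-1425121): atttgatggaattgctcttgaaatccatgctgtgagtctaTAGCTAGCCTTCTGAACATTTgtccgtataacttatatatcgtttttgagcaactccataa
PlexA, highest summit, promoter (chr4:1027211-1027311): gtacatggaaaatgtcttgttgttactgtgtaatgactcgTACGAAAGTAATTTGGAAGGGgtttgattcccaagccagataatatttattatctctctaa
Sema1a, highest summit, intron (chr2L:8575098-8575198): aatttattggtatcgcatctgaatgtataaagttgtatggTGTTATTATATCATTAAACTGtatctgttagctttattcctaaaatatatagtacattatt

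Motifs were sought by their letters on both strands in windows of the same size at all 53 optimal summits at the members. The homeodomain core TAATTA was in 6 member windows (11.3%), against 10.1% of all 8164 optimal windows. The half-site ATGCAA, which is TTGCAT on the other strand, was in 3 member windows (5.66%), against 10% of all optimal windows. The POU octamer ATGCAAAT, which contains that half-site, was in 0 member windows and in 1.59% of all. The DREF site TATCGATA was in 0 member windows and in 0.784% of all, and the GAGA factor repeat GAGAGAG in 0 and in 1.26%. The nuclear receptor half-site AGGTCA was in 0 and in 1.92%, and the E-box CACGTG in 0 and in 0.576%. Strings absent at the members were thus also rare in the whole list. The next windows show matches at NetA, robo2 and Sema1a, with the motif in capitals, on dm6, plus strand.
NetA, intron, TAATTA (chrX:14621659-14621759): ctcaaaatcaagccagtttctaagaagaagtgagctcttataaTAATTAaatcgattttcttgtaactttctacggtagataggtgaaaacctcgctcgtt
robo2, intron, TAATTA (chr2L:1393807-1393907): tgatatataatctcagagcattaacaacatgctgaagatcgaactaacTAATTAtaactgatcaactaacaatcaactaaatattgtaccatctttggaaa
NetA, upstream, TTGCAT (chrX:14655819-14655919): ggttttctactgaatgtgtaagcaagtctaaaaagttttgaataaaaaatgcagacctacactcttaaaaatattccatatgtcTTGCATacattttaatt
Sema1a, intron, TTGCAT (chr2L:8585133-8585233): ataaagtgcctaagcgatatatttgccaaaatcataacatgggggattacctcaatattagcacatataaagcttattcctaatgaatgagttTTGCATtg

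Of the 10 genes, 9 had an optimal summit in the gene or within 5 kb, the exception being robo3. The same held for 48.2% of all protein-coding genes and for 74.6% of the 2183 genes as long as the members, which are those from 8447 to 129895 bp. The members are long genes, with a median length of 40274 bp against 18089 bp in that length range, so the second share is the nearer background. A promoter summit was found at 6 members, namely unc-5, fra, NetB, robo2, PlexA and Sema1a, against 17.6% of all genes and 33.2% of genes in the length range. An intronic summit was found at 7 members, namely unc-5, fra, NetA, NetB, robo2, sli and Sema1a, against 10% and 49.0%. A summit whose peak was covered over at least 50% of its length in all 3 replicate lists was found at 9 of the 10 members. These are all the members with a summit. The same held for 44.8% of all genes and 72.1% of genes in the length range, counting genes without any summit. Among all genes 6717 had a summit and 6242 a covered one, and in the length range 1628 and 1575, so most genes with a summit had a covered one.

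**Figure D1:**
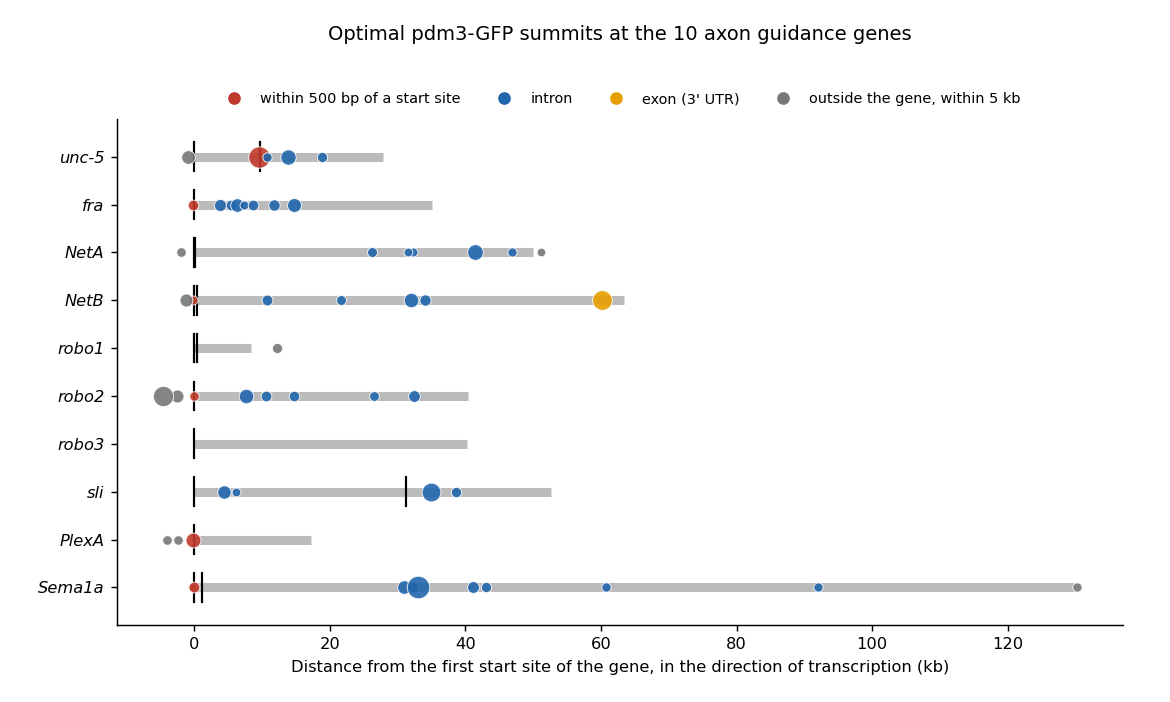
Map of the 53 optimal summits at the 10 genes. The horizontal axis is the distance in kb from the first annotated start site, grey bars are the genes, black ticks the outermost start sites, and the area of a circle is proportional to the authors' signal value. The map shows 8 summits over the first part of fra, none at robo3, and 1 beyond the end of robo1.

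The members held 53 optimal summits in all, with a median of 6 per gene against 2 in the length range. Per 10 kb of gene and flank the median was 1.03 at the members and 0.528 in the length range. The density was highest at fra, with 1.77 summits per 10 kb, a value above that of 87.4% of genes in the length range. Next came robo2 with 1.59 and unc-5 with 1.32, and the lowest densities above 0 were at sli with 0.639 and robo1 with 0.542. By pathway, the 4 netrin genes carried 27 summits (1.25 per 10 kb), the 4 Slit genes 13 (0.716) and the pair of semaphorin genes 13 (0.778). The 6 receptors carried 25 summits (1.09 per 10 kb), and the 3 secreted ligands with Sema1a carried 28 (0.834). These densities rest on 1 pooled list and have no replicate error of their own.

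Of the 53 summits, 35 (66.0%) were intronic, 7 (13.2%) were at promoters, 1 (1.89%) was exonic and 10 (18.9%) lay outside the gene. Over genes of the length range the corresponding shares were 58.2%, 15.6%, 1.04% and 25.1%. In 25 of the 35 intronic cases the summit lay in the longest intron of the gene, and in 18 it lay in the first intron of at least 1 transcript. The longest intron held 7 of 7 intronic summits at fra, 4 of 4 at NetB and 6 of 7 at Sema1a, but 0 of 3 at unc-5. That intron takes up 26746 of 35132 bp at fra, 53377 of 63339 bp at NetB and 66730 of 129895 bp at Sema1a. At unc-5 it takes up 9459 of 27829 bp. The shares in longest and first introns were not computed over other genes. Whether these counts exceed what intron length alone would give was not tested.

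Among the receptors of the netrins, unc-5 (FBgn0034013, chr2R:15340472-15368300, plus strand) had 5 optimal summits. The highest, at chr2R:15349876-15350156, lay 135 bp before the downstream of its 2 start sites and had a signal value of 563. It ranked 660 in replicate 1, 781 in replicate 2 and 876 in replicate 3, close to the head of all 3 lists of 30000. The upstream start site had no promoter summit, the nearest being 827 bp before it with a signal value of 228. The other 3 summits were intronic, with signal values of 288, 128 and 107. The intronic summit of 288, at chr2R:15354236-15354444, had nearly the same rank in each library, 2253, 2263 and 2352.

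At fra (FBgn0011592, chr2R:12529053-12564184, plus strand), which encodes the attractive netrin receptor, all 7 intronic summits lay in the first intron of 26746 bp. In the most crowded stretch, 6 of its 8 summits fell within 8844 bp. The signal values at fra ran from 98.6 to 239, with a median of 149 against 173 over all optimal peaks. The highest peak, at chr2R:12543735-12543879, ranked 2751, 2333 and 3731 in replicates 1, 2 and 3. It lay 14768 bp after the fra start site but 1868 bp from that of another coding gene, CG33752. Intronic summits of 158.5 and 138.2 were also nearer to CG33752, at 4841 and 7999 bp against 11795 and 8637 bp. They were counted for fra because they lie inside it. The fra promoter summit, 207 bp before its start site, had a signal value of 139 and ranks of 5588, 5693 and 7170. So fra combined the highest density with a highest peak below that of every other member with a summit except robo1.

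Both netrin genes lie near each other on X, on the minus strand. NetA (FBgn0015773, chrX:14604012-14653928) had 7 optimal summits and none at its promoter. Its highest, in an intron of 9889 bp at chrX:14612377-14612643, had a signal value of 301 and ranks of 1880, 2442 and 1930. This summit lay 41305 bp from the nearest NetA start site and 9949 bp from that of sbm, another coding gene. The other NetA signal values ran from 91.5 to 121, near the bottom of the optimal list, and 1 of the 7 peaks was covered in the top of all 3 replicate lists, meaning the highest 8164 peaks of each. The lowest of them, of 91.5, lay 1238 bp beyond the gene and 194 bp from the start site of sbm, and was counted for NetA by distance alone. The 3 summits in the longest NetA intron, of 31254 bp, had signal values of 121, 98.7 and 94.0.

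NetB (FBgn0015774, chrX:14686038-14749376) also had 7 optimal summits, spread over a longer gene. The highest was the only exonic summit at the members. It lay at chrX:14689137-14689418, in the 3′ UTR shared by all 7 transcripts and 3250 bp from the gene's end, with a signal value of 476. Its ranks were 863, 1352 and 1078, although the narrow peak of replicate 2 covered 44.7% of it. Summits in a 3′ UTR of a protein-coding gene and over 500 bp from its start sites were rare in the optimal list. There were 99 of 8164 (1.21%), and that of NetB was the 11th highest of them. The 4 intronic summits, with signal values from 120.4 to 260.4, all lay in 1 intron of 53377 bp. The highest of these lay 31574 bp from the nearest NetB start site but 1506 bp from that of another coding gene, hog. Those of 156.6 and 120.4 were also nearer to hog, at 3621 and 8825 bp against 33689 and 21243 bp. The NetB promoter summit, 163 bp before the gene's first start site, was weak at 98.2, and a summit 1252 bp before that start site was stronger at 209.

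**Figure D2:**
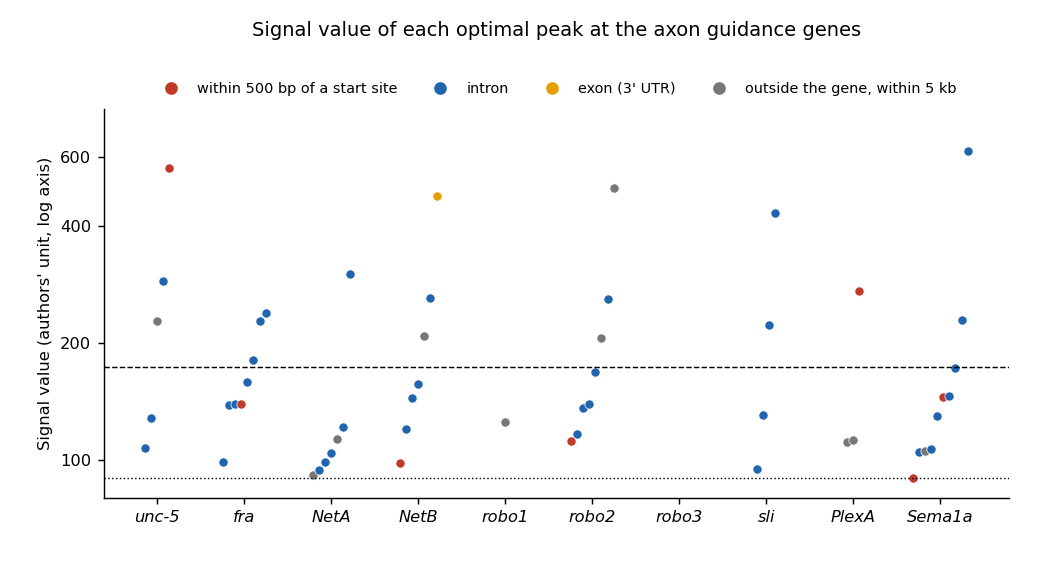
Signal value of each optimal peak by gene, on a log axis in the authors' unit. Each point is a peak, coloured by site, the dashed line is the median of all optimal peaks (173) and the dotted line the lowest value in the list (89.8). Each of unc-5, NetB, robo2, sli and Sema1a had 1 peak at 433 or more, and NetA had 1 peak that stood above 6 low ones.

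The Roundabout receptors differed among themselves: robo2 had 8 optimal summits, robo1 had 1 and robo3 had 0. At robo2 (FBgn0002543, chr2L:1380086-1420453, minus strand) the highest peak lay outside the gene, at chr2L:1424927-1425212 and 4618 bp before the start site, with a signal value of 501. It ranked 783, 989 and 1097 in the 3 libraries, although replicate 2 covered 46.9% of its length. The start site of another coding gene, CG43401, was nearer, at 3403 bp. Assigned by nearness to a start site, this peak would go to CG43401. A second upstream summit, 2519 bp before the robo2 start site, had a signal value of 205. The robo2 promoter summit, 35 bp before the start site, was lower at 112 and varied between libraries, with ranks of 12361, 3435 and 7421. Of the 5 intronic summits, from 117 to 259 in signal value, 3 lay in the first intron of 22651 bp.

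The only optimal summit counted for robo1 (FBgn0005631, chr2R:22692524-22700970, minus strand) lay 3774 bp beyond the end of the gene, at chr2R:22688540-22688959. It lay 237 bp from the start site of Ppa and had a signal value of 126, with ranks of 6368, 3978 and 7844. Assigned by nearness to a start site, it would go to Ppa, and robo1 would have none. A second site downstream of robo1 was a candidate in each replicate and yet had no optimal peak. Its summits lay at 22690393, 22690382 and 22690520, with ranks of 3315, 8930 and 3446, and no pooled candidate had a summit within 200 bp. At the robo1 promoter the best candidates ranked 20505, 8894 and 15545, outside the highest 8164 of every list.

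At robo3 (FBgn0041097, chr2L:1256417-1296596, plus strand) the replicate lists held weak candidates only. There were 8, 14 and 3 of them (8.33 ± 5.51, SD, n = 3), and the best ranked 14330, 14900 and 10762. One intronic site, with summits at 1280851, 1280840 and 1280832, was found within 200 bp in all 3 libraries, with ranks of 19712, 19342 and 10762. In the pooled list the best robo3 candidate ranked 10927 with a signal value of 65.4, below the lowest optimal value of 89.8. No replicate had a candidate at the robo3 promoter. A robo3 site weaker than the authors' threshold is therefore not detectable in the optimal list.

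The ligand gene sli (FBgn0264089, chr2R:15869495-15922118, minus strand) had 4 optimal summits, all intronic. The highest, at chr2R:15887046-15887297, had a signal value of 433 and lay 3729 bp after the downstream of its 2 start sites. Its ranks were 1722, 836 and 1134, highest in replicate 2, whose narrow peak covered 44.8% of it. The others had signal values of 222, 131 and 94.7. The weakest, 21 bp from the start of the noncoding gene lncRNA:CR44373, ranked 27575 in replicate 1 against 8015 and 7223, so it was weak in replicate 1. Replicate 2 alone had a candidate at rank 2805 just beyond the end of sli, 171 bp from the start site of Rif1.

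PlexA (FBgn0025741, chr4:1009895-1027101, minus strand), the receptor of Sema1a, had 3 optimal summits and none in an intron. Its promoter summit, at chr4:1027146-1027413 and 160 bp before the start site, had a signal value of 272. It ranked 2421 in replicate 1 and 1785 in replicate 3 but 8421 in replicate 2, a 4.72-fold spread that was the widest among the 53 member summits. Replicate 2 is the library with the fewest candidates on chromosome 4, and the part of this in the low rank was not tested. The upstream summits, with signal values of 111 and 112, lay 65 bp from the start site of Mpv17 and 118 bp from that of CG11076, with a start site of ATPsynbeta also within 1 kb of the latter summit. Leaving out summits within 1 kb of another coding gene's start site, the promoter summit alone was left.

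Sema1a (FBgn0011259, chr2L:8542147-8672041, plus strand) is the longest of the 10 genes and had the most optimal summits, 10. Its highest peak, at chr2L:8574993-8575323, had a signal value of 624, the highest among the members, and lay in an intron of 66730 bp, 31818 bp after the nearest start site. It ranked 525, 992 and 503. A pair of neighbours with signal values of 228 and 146 lay before it, so 3 summits fell within 2037 bp, after 31035 bp with no optimal summit. The promoter held 2 summits 245 bp apart, with signal values of 89.9 and 145. Their peaks overlap, and both took their ranks, 4924, 4422 and 4055, from the same peak in each replicate. They are counted as 2 summits but are not separate in the replicate ranks. In replicate 3 the peak of the weaker summit was covered over 22.4% of its length, against 91.9% and 96.7% in replicates 1 and 2. A tRNA gene, tRNA:Asp-GTC-1-5, starts 70 bp from the weaker one. The summit beyond the 3′ end, at 105, lay 302 bp from the start site of Glt.

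**Figure D3:**
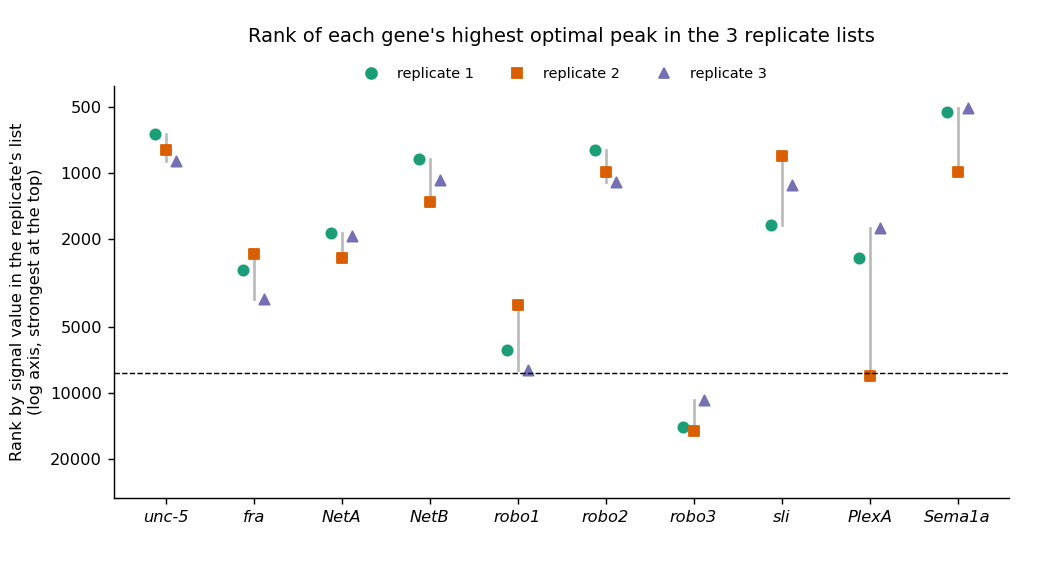
Rank of each gene's highest optimal peak in the list of each replicate, on a log axis with the strongest at the top; for robo3, which has no optimal peak, the best candidate of each replicate is drawn. The dashed line is rank 8164, the length of the optimal list. Unc-5, NetB, robo2, sli and Sema1a stayed at rank 1722 or better in each library, PlexA fell below the line in replicate 2, and robo3 lay below it in all 3.

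Over all 53 summits, the members' peaks were lower than the list as a whole. Their median signal value was 139, against 173 over all optimal peaks, and 18 of 53 (34%) were in the higher-signal 50% of the list. Coverage in the whole replicate lists was close to the background: 49 (92.5%) were covered in all 3, against 91.2% of all optimal peaks. Those not so covered include the highest peaks of NetB, robo2 and sli, of which replicate 2 covered 44.7%, 46.9% and 44.8%. These nevertheless ranked 1722 or better in all 3 libraries. By the stricter measure, coverage in the top 8164 peaks of all 3 lists, the members' share was lower. It was 28 of 53 (52.8%), against 62.3% of all optimal peaks. The highest of the 3 replicate ranks was a median of 1.65 times the lowest, against 1.60 over all optimal peaks. The members' peaks of the full 420 bp had a median signal value of 128 and the 14 narrower ones 280, against 128 and 326 in the whole list. The median GC content of the windows was 30.7%, and 31.7% over all optimal windows.

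In the replicates' own lists the members together had 190, 222 and 177 candidate summits (196 ± 23.2, SD, n = 3). Of these, 54, 55 and 47 were among the 8164 highest of their list (52.0 ± 4.36). The intronic share was 77.4%, 77.5% and 73.4% (76.1 ± 2.34). Per gene the counts were highest at Sema1a (35.0 ± 9.54), NetB (33.0 ± 1.73), sli (29.7 ± 5.13) and robo2 (26.3 ± 5.51). Then came fra (19.7 ± 3.06), NetA (17.0 ± 1.73) and unc-5 (15.0 ± 1.00). The lowest counts were at robo3 (8.33 ± 5.51), PlexA (7.33 ± 2.31) and robo1 (5.0 ± 2.65). The ranges over replicates of neighbours in this order overlapped or met throughout, while those of the first 4 genes and the last 3 lay apart. Per 10 kb the order changed: robo2 had 5.23 ± 1.09 candidates and sli 4.74 ± 0.819, while Sema1a had 2.50 ± 0.682 and robo3 1.66 ± 1.10. Sema1a was thus first by count and second from the end by density, and robo3 was last by density.

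**Figure D4:**
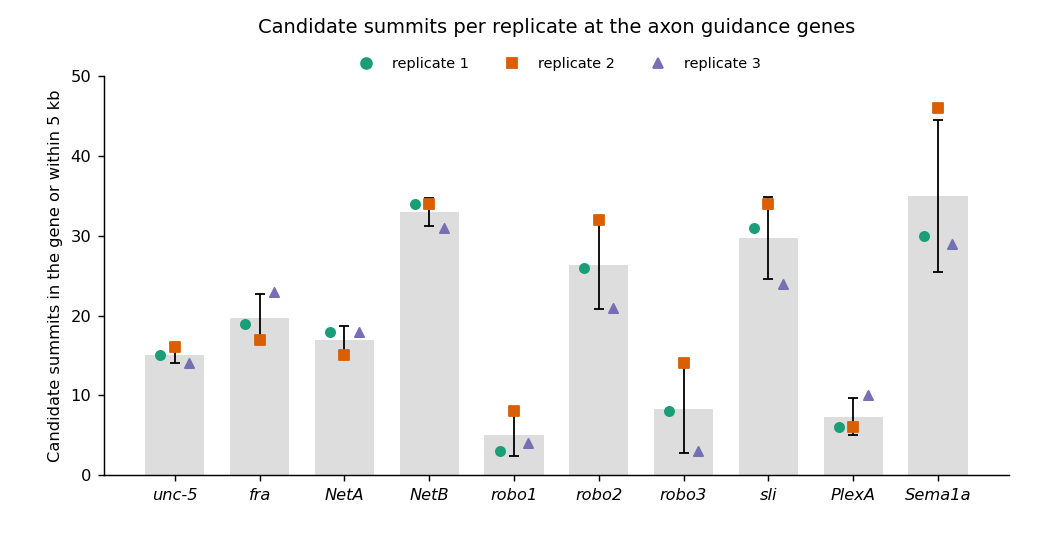
Candidate summits in the gene or within 5 kb in the 3 replicate lists of 30000. Bars are means, error bars 1 SD (n = 3), and symbols the replicates. Replicate 2 had 46 candidates at Sema1a against 30 and 29 in the other libraries, while unc-5 and NetB varied little.

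Some members had candidates among the 8164 highest of a replicate that overlapped no optimal peak. There were 7 of 54 (13.0%) in replicate 1, 13 of 55 (23.6%) in replicate 2 and 4 of 47 (8.51%) in replicate 3. Over the 8164 highest peaks of each list the shares were 11.9%, 17.5% and 12.2%, so replicate 2 had the highest share at the members and in the whole list. Of the 13 in replicate 2, 5 were at sli. One of these lay 54 bp from the upstream sli start site and ranked 6942 there, but 22037 in replicate 1, with no candidate within 200 bp in replicate 3. A site 3299 bp beyond unc-5 and 79 bp from the start site of Pms2 ranked 16769, 7543 and 7452 and, like the robo1 site, had no pooled candidate within 200 bp.

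Other genes of axon guidance were read from a list of 54 symbols, of which 51 were in the annotation. An optimal summit lay in or within 5 kb of 40 of them (78.4%), at the promoter of 20 (39.2%) and in an intron of 26 (51.0%). The shares over genes of the members' length range were 74.6%, 33.2% and 49.0%, close to these, and over all protein-coding genes 48.2%, 17.6% and 10%. Among genes of midline and netrin signalling 10 of 12 had one, with the highest at trio (signal value 993), comm3 (672) and the glypican dlp (650.3), and with none at comm, which keeps Robo off the growth cone, or Nedd4. Among semaphorin and plexin genes it was 7 of 9, with otk2 (841), Gyc76C (551) and Sema5c (386) highest and none at Sema1b or Sema2a. The otk2 peak also lay within 1 kb of start sites of Mppe and pds5, and that of Gyc76C of SREBP and CG42637. Receptor phosphatases had summits at 4 of 6, with Ptp4E (1179.7), Ptp10D (999.7) and Lar (251, near CG10366 and PCNA2) highest and none at Ptp69D or Ptp52F. Of the Eph, Wnt and Toll genes 6 of 9 had one, led by dnt (758), 18w (337) and drl (318), with none at Eph or Ephrin. Adhesion and targeting genes had one at 13 of 15, led by Ten-a (736), the metalloprotease gene kuz (602) and tutl (595), with none at beat-Ia or side. The highest peak of 8 of these genes exceeded the 624 of Sema1a.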

How the data were processed

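Peak lists of 3 anti-GFP ChIP-seq replicates from whole white prepupae, deposited on dm6, were used; those on dm3 were not. Per the labels' readme, candidates of a replicate were made from its own alignments with 1 control file, pooled candidates from the 3 libraries together, and the optimal list by setting these lists against each other. Which aligner, caller and threshold served is not given in the sources used here, and the control library, reads and tracks were not analysed here. Peak signal is in the authors' own deposited unit, whose normalization is not stated, and ranks by it were used within a list only. Depth per library is unknown, so no interval or floor was computed.

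Coordinates are on dm6 and counted from 1. Genes, transcripts and start sites came from Ensembl release 115, and sequence from the RefSeq assembly, whose arm ends no peak passed. A peak counted as found in a replicate when that replicate's peaks covered at least 50% of it. Mean and SD are over 3 replicates. With 1 group no test was made, and the main counts stand beside the same share over all genes or peaks. Counts by longest or first intron, candidate counts per replicate and the intronic share of candidates have no such share beside them. The counting was tested on simulated data. The alternatives covered the peak set, each replicate left out, gene models, distances and coverage; leaving out summits within 1 kb of another gene's start site was added after seeing the data.

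The members, the lists and the motifs were chosen with earlier results of these data known. All 10 members are named, with all their summits or the range. Of the other guidance genes, the 3 with the highest summit per role are named, and up to 2 without one, in list order. Coding neighbours are named where their start site lies within 1 kb of a named summit. Noncoding neighbours, and the nearest coding ones farther off, are named for some summits only. The sites in replicate lists that lack an optimal peak were chosen after their values were seen. The window of 1 NetB summit is not reported here. Python 3.11.15, numpy 2.4.6, scipy 1.17.1 and matplotlib 3.10.9 were used.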

Additional observations from a re-analysis of the deposited data

How the results depend on the processing

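The number of members with an optimal summit, 9, ran from 7 (gene bodies only) to 10 (pooled candidates) over the alternatives. All results are counts in 1 group, so none has a direction that could change. In the higher-signal 50% of the optimal list there were 18 summits at the members, 11 of them intronic, and 2 members with a promoter summit in place of 6, by the construction of a shorter list. Among the pooled candidates, a longer list, there were 224 summits, 180 of them intronic. Leaving out each replicate in turn, which asks for coverage in the top of both other lists and so is a stricter selection, gave 31 to 39 summits in place of 53, 23 to 26 intronic ones in place of 35, and 3 to 4 members with a promoter summit. RefSeq gene models gave the same 9, 6, 53 and 35. Without summits near another gene's start site, an alternative added after seeing the data, 8 members and 48 summits were left, and robo1 had none. Counting only gene bodies left 0 summits at robo1 and PlexA and 5 at robo2. In all, 33 of the alternative values of the main counts stayed within 1.5 times, and 10 did not. No paired analysis was possible because the series has 1 group and no comparison. The lists hold no read counts, so how far depth limits the absence of an optimal summit at robo3 could not be computed.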
